A study of Mus musculus with 6 samples.

Results

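Skin taken beside a subcutaneous cytokine pump was compared between mice given IL-13 or TSLP and mice given TGF-beta. The comparison used 4 of the 6 arrays of the series, chosen by their titles: 1 array under IL-13, 1 under TSLP and 2 under TGF-beta, labelled mouse 1 and mouse 2. The mice were C57BL/6, the pumps ran for 7 days, and all 4 pieces came from the pump outlet. The other 2 arrays, PBS at the outlet and PBS in distal abdominal skin, were not among the arrays compared or in the main test. They entered the offset added to each signal, which was taken from all 6 arrays, and an alternative fit. The signal of PBS outlet skin is given beside the genes as the control level. No allele, dose, age or sex is given in the labels used here. IL-13 and TSLP are different treatments, so the pair is not a replicate pair, and the spread between them holds the difference between the cytokines as well as that between mice. The labels do not say that the arrays under IL-13 and TSLP came from 1 mouse each, nor whether tissue was pooled.

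IL-13 is a type 2 cytokine that signals through the Il4ra and Il13ra1 chains and drives alternatively activated macrophage genes. TSLP is made by epithelium and acts on dendritic cells and lymphocytes through Crlf2 and Il7r. TGF-beta signals through SMAD proteins, drives matrix and smooth muscle genes in fibroblasts, and is also known for restraining inflammatory gene expression.

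Skin markers were high on all 4 arrays. The basal keratin Krt5 had signals from 6030 to 6847, the suprabasal keratin Krt10 from 12656 to 18937, and the dermal collagen gene Col1a1 from 4383 to 6807. The 3'/5' signal ratio of the actin controls, a measure of RNA integrity, ran from 1.19 to 1.25. The array medians ran from 160 to 172 signal units. The TGF-beta mice stood apart from each other in several cell type lists: hair follicle genes were high in mouse 2, and exocrine pancreas genes, which skin should lack, were low in mouse 1 and high on the other 3 arrays. Melanocyte genes were higher in mouse 2 by a median of 2.33, with 5 of 7 at least 2-fold apart between the mice. B and plasma cell genes were lower there, with a median of -1.05 for mouse 2 minus mouse 1 and 3 of 6 apart. Of 19 skeletal muscle genes, 4 were apart. Over all 12144 probe sets past the filter described below, 283 were at least 2-fold apart between the mice. In bulk skin, fewer cells of a type and less RNA per cell cannot be told apart.

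Both sides were compared probe set by probe set on the scale log2(signal + 27.4). A probe set counted as apart when both arrays of one side lay above both arrays of the other, and it was ranked by the smallest of the 4 differences between the sides. Of the 22626 probe sets, 12144 had at least 1 of the 4 arrays at or above the median signal of 165, and the results below are over these. IL-13 and TSLP were higher for 2060 probe sets (17.0%) and TGF-beta for 1820 (15.0%). With so few arrays on each side, such an order often arises when nothing differs between the sides. These counts alone are therefore no evidence that the cytokines differ, and serve below only as the background share for the gene lists. The median difference between the side means over all 12144 was 0.0018. The deposited arrays already shared a scale, so such a balance was largely set beforehand. It did not hold for the brightest probe sets, which leaned to TGF-beta as given below.

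By the smallest of the 4 differences, larger gaps were more often on the IL-13 and TSLP side. All 4 differences reached 1 on the log2 scale, which is 2-fold, for 12 probe sets higher under IL-13 and TSLP (0.0988%) and for 0 higher under TGF-beta (0%). Of the 12, 4 (Acod1, Il6, Has1 and Mmp12) passed the filter through the IL-13 and TSLP side only, and 8 remained where all 4 arrays had to pass. At a smallest difference of 0.5, there were 87 against 14. The largest smallest difference was 2.32 on the IL-13 and TSLP side and 0.75 on the TGF-beta side. Around the 2-fold line, Il1b (1.09) and Mmp12 (1.08) lay just inside and Ptgs2 (0.93) and Slamf9 (0.91) just outside. Within the sides, 177 probe sets were at least 2-fold apart between IL-13 and TSLP and 283 between the TGF-beta mice. The imbalance depends on the measure and on mouse 1. The difference of the side means reached 1 for 94 probe sets higher under IL-13 and TSLP and for 70 higher under TGF-beta. Without TGF-beta mouse 1 the 2-fold counts were 62 and 109, and without mouse 2 they were 55 and 5. Hair follicle genes, high in mouse 2, had a list median of -4.32 without mouse 1. Their part in these counts was not tested.

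**Figure D1:**
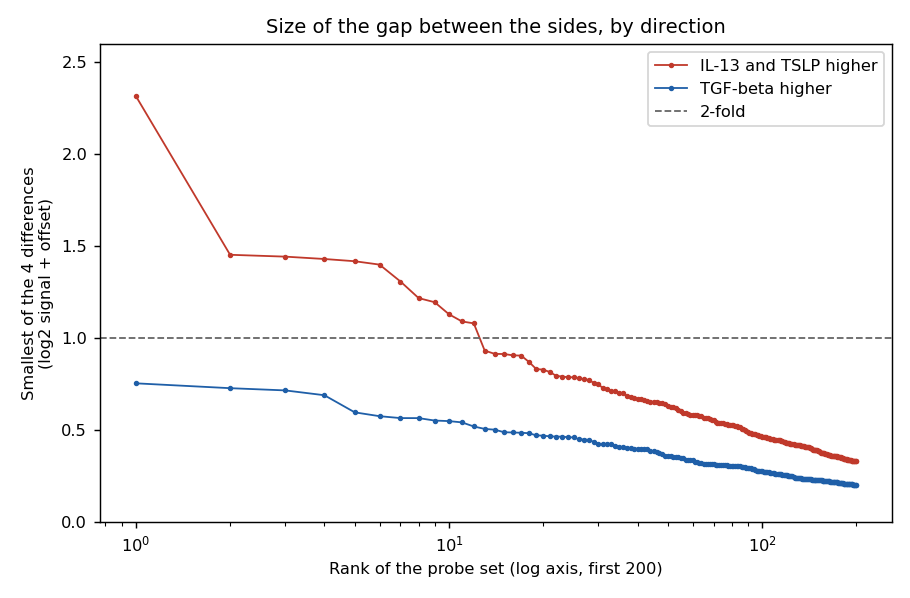
The smallest of the 4 differences between the sides (y axis, log2 units) is plotted against the rank of the probe set (x axis, log scale, first 200), in red for IL-13 and TSLP higher and in blue for TGF-beta higher. The red line starts at 2.32 and crosses the dashed 2-fold line after 12 probe sets, while the blue line starts at 0.75 and lies below the dashed line throughout.

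With the sides as 2 groups of 2, limma called 1 probe set after Benjamini-Hochberg adjustment over the 12144, that of the neutrophil chemokine Cxcl1 (0.00823%), and 0 higher under TGF-beta (0%). At an unadjusted limma p under 0.05 there were 518 of the 12144. That share is below the 0.05 that the threshold itself would let through if nothing differed. Of the 518, 365 were higher under IL-13 and TSLP and 153 under TGF-beta. The second smallest limma adjusted p was 0.153. Apart from Cxcl1, then, the values below describe 4 arrays and did not pass the test.

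The 12 probe sets at least 2-fold apart named genes of myeloid recruitment and acute inflammation, an early response transcription factor, a hyaluronan synthase, a macrophage elastase and a marker of alternative activation. In rank order they were Cxcl1, Acod1, Cxcl2, Il6, Has1, Fos, Retnla, Ccl7, Slfn4, Ccl2, Il1b and Mmp12. PBS outlet skin lay between the sides for 7 of the 12 and below all 4 cytokine arrays for 5, namely Cxcl1, Acod1, Cxcl2, Il6 and Mmp12.

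**Figure D2:**
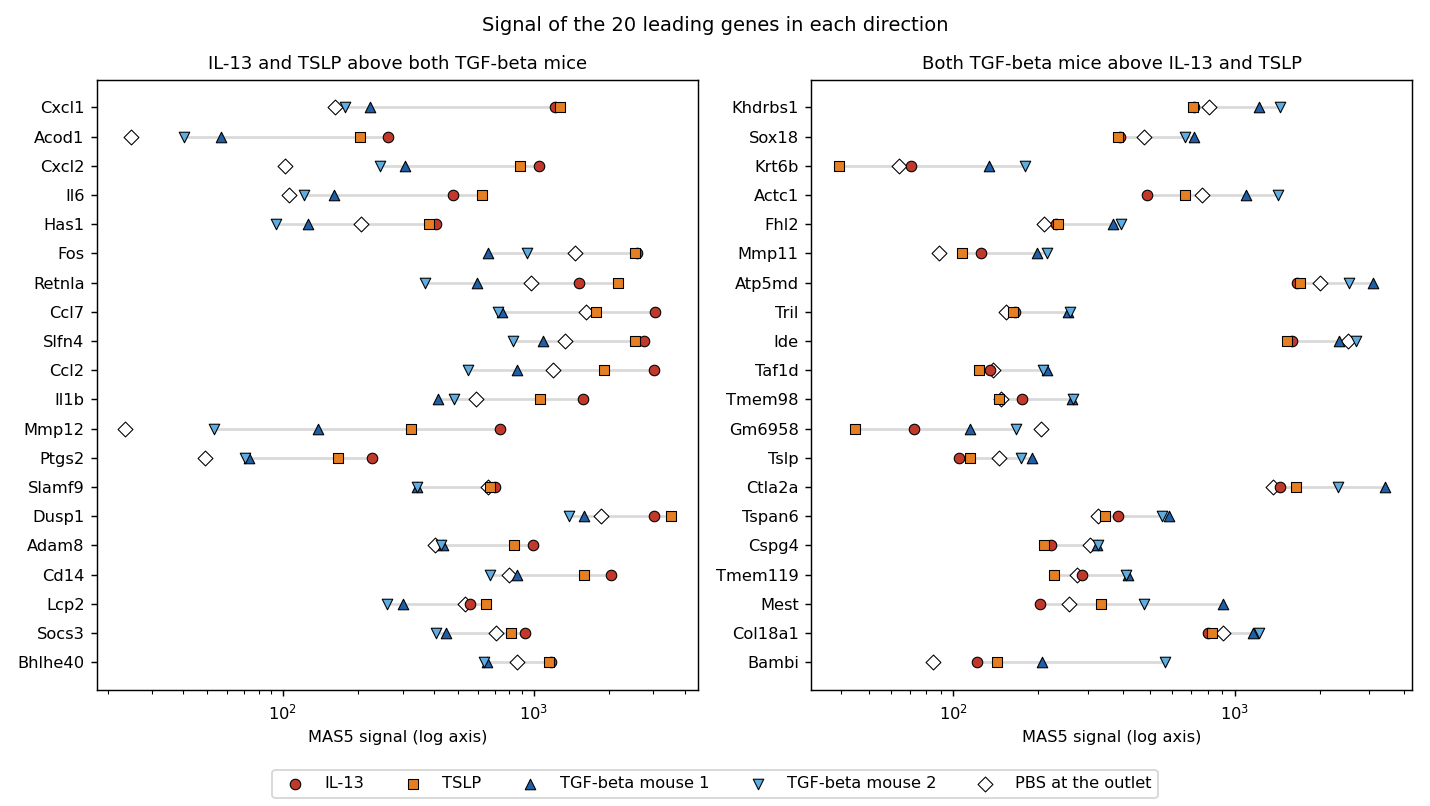
MAS5 signal (x axis, log scale) of the 20 leading genes on each side, with 1 point per array and a grey line over the range of the 4 cytokine arrays; the open diamond is PBS skin at the outlet. On the left, Cxcl1 stands at 1219 and 1272 under IL-13 and TSLP against 223 and 176 under TGF-beta; on the right the gaps are narrower, as for Sox18 at 390 and 385 against 714 and 664.

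Cxcl1, a chemokine that draws neutrophils through the receptor Cxcr2, reached 1219 in the IL-13 array and 1272 in the TSLP array. It stood at 223 in TGF-beta mouse 1, at 176 in mouse 2 and at 162 in PBS outlet skin. The sides were far apart and each was tight. The difference was 2.50 with a standard error of 0.16, and the limma adjusted p was 0.016. That call rests on IL-13 and TSLP standing as a pair: with the spread taken from the TGF-beta mice alone the limma adjusted p was 0.444, without the IL-13 array 0.554, and without the TSLP array 0.542. Over all settings it ran from 2.86e-07 to 0.637, while the difference ran from 1.95 to 2.65 and was positive in each.

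Cxcl2, a second ligand of the same receptor, had signals of 1051 and 879 under IL-13 and TSLP against 306 and 244 in the TGF-beta mice and 102 in PBS outlet skin. Its order was IL-13 and TSLP above TGF-beta above PBS, with a difference of 1.72 ± 0.17 (SE) between the sides and a limma adjusted p of 0.153. Cxcl5, also a neutrophil chemokine, was high under all 3 cytokines, at 1883 under IL-13, 1662 under TSLP, 1036 in mouse 1 and 334 in mouse 2, against 67.4 in PBS outlet skin. The sides were apart by only 0.67, because the TGF-beta mice themselves differed. The platelet chemokine Ppbp was at 441 and 469 against 357 and 173. All 4 of the neutrophil chemokine genes past the filter were thus higher under IL-13 and TSLP, against 17.0% of all probe sets. Their median was 1.63, and the receptor gene Cxcr2 lay below the filter. The list was chosen with earlier results of these data known. It holds the leading genes Cxcl1 and Cxcl2, so its count is no separate support.

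The sequences just before the starts of Cxcl1, Cxcl2 and Il6 are shown because these were the leading IL-13 and TSLP genes whose promoters held the NF-kB motif GGGNNNTTCC, NF-kB being the main transcription factor of acute inflammatory genes. Each line gives the 130 bases before the start, 5′ to 3′, from RefSeq on GRCm38.p6, all on the + strand. They lie at chr5:90891115-90891244 (Cxcl1), chr5:90903769-90903898 (Cxcl2) and chr5:30012984-30013113 (Il6). Capitals mark matches on either strand, and runs longer than the motif are overlapping matches.
Cxcl1: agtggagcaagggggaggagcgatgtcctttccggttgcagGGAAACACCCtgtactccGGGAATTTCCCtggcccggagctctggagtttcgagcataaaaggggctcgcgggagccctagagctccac
Cxcl2: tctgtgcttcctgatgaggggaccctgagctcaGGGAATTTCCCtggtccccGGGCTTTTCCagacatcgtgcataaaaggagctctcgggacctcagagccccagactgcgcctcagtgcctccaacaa
Il6: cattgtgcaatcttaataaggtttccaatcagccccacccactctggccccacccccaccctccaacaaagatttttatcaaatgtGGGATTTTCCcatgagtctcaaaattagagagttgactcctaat

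The site GGGAATTTCC begins 71 bases before the Cxcl1 start and 97 before that of Cxcl2, and the Il6 site GGGATTTTCC begins 44 bases before its start. The motif was chosen after the gene values were seen. It was found in the promoters, 250 bases before to 50 after the start, of 3 of the 16 leading IL-13 and TSLP genes with a promoter in the table. Among the leading TGF-beta genes 1 of 14 held it (Mest), and of all 27025 genes with a promoter 6.31% did. A gene was counted if any of its promoters held the motif. The looser form GGGNNNNNCC, which includes the first, was in 9 of 16, 12 of 14 and 53.5%. The interferon gamma activated site TTCNNNGAA was in 1 of 16 (Socs3), 1 of 14 (Ctla2a) and 9.55%. The interferon response core GAAANNGAAA was in 0, 0 and 3.99%. The TATA box core TATAAA was in 6 of 16, 4 of 14 and 15.7%. These are matches of letters only. Ccl7, Ccl2, Cd14, Bhlhe40, Khdrbs1, Sox18, Krt6b, Tslp, Tmem119 and Bambi were not matched to a promoter.

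Among secreted mediators, Il6, a cytokine of the acute phase, had signals of 477 and 624 under IL-13 and TSLP against 160 and 121 in the TGF-beta mice and 106 in PBS outlet skin. Its groups did not overlap, with a difference of 1.78 ± 0.21 (SE), and both TGF-beta arrays were below the filter. Il1b, the inflammasome cytokine, stood at 1578 and 1059 against 415 and 483, and PBS outlet skin at 588 lay between the sides. Acod1, which makes itaconate in activated macrophages, was at 262 and 202 against 56.4 and 40.3, with 24.7 under PBS; both TGF-beta arrays were below the filter. Ptgs2, the inducible prostaglandin synthase, was at 226 and 165 against 73.4 and 70.4, the TGF-beta arrays again below the filter.

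The monocyte chemokines showed another order. Ccl2 had signals of 3007 and 1902 under IL-13 and TSLP, 854 and 548 under TGF-beta, and 1188 in PBS outlet skin. Ccl7 was at 3043 and 1778 against 748 and 723, with PBS at 1622. For both genes the control array lay above both TGF-beta mice and below the other cytokines. Ccl12 was at 3486 and 1723 against 1067 and 1276. Of the 17 genes of the monocyte chemokine and acute inflammation list that passed the filter, 12 were higher under IL-13 and TSLP, 5 of them at least 2-fold, and 1 under TGF-beta, the acute phase gene Saa3, against 17.0% and 15.0% of all probe sets and 0.0988% at 2-fold. Their median was 0.68. The 5 at least 2-fold apart are among the leading probe sets already named, so this count is no separate support either.

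Early response genes, which cells switch on within minutes of a stimulus, lay on the same side. Fos, a subunit of the transcription factor AP-1, had signals of 2576 under IL-13, 2534 under TSLP, 658 and 943 in the TGF-beta mice, and 1461 in PBS outlet skin. Both TGF-beta mice were below the PBS array and the other cytokines above it, and the difference between the sides was 1.66 ± 0.19 (SE), with a limma adjusted p of 0.204. Dusp1, a phosphatase that switches off MAP kinases, was at 3021 and 3525 against 1590 and 1385, with PBS at 1857. Nr4a1, an orphan nuclear receptor, was at 635 and 477 against 265 and 174. Fosb, which passed the filter through the IL-13 array only, was at 187 and 67.4 against 28.9 and 19.5. In a list of early response genes made after these values were seen, 14 of the 21 past the filter were higher under IL-13 and TSLP and 1 under TGF-beta (Klf10), with a median of 0.35, against 17.0% and 15.0% of all probe sets; a list chosen this way supports no direction. Egr1 did not separate the sides, with 1891 and 1667 against 965 and 1998.

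Feedback and myeloid genes followed. Socs3, an inhibitor of cytokine receptor signalling, was at 921 and 813 against 446 and 406, with PBS at 706, and its other 2 probe sets were apart in the same direction. The lipopolysaccharide co-receptor Cd14 was at 2027 and 1591 against 857 and 669, and the protease Adam8 at 992 and 835 against 433 and 426. Slamf9, a receptor of myeloid cells, was at 699 and 669 against 342 in both TGF-beta mice, with PBS at 660. The adaptor Lcp2 was at 556 and 647 against 300.5 and 260.2 with PBS at 532. For Slamf9 and Lcp2, PBS outlet skin lay much nearer to the IL-13 and TSLP arrays than to the TGF-beta mice. Slfn4, a Schlafen gene of myeloid cells, was at 2743 and 2540 against 1093 and 823.

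Macrophage list genes were mostly higher on the joint side, with a small median difference. Of 15 macrophage list genes past the filter, 10 were higher under IL-13 and TSLP and 2 under TGF-beta (C1qa and Marco), against 17.0% and 15.0% of all probe sets, and the median was 0.20. Adgre1, the F4/80 gene, was at 1542 and 1706 against 1408 and 1409, and Csf1r, the macrophage growth factor receptor, at 11052 and 9082 against 11990 and 10517. The highest and lowest differences were 1.24 for Clec4e and -0.63 for the scavenger receptor Marco. Clec4e, which senses mycobacterial lipid, was at 528 and 348 against 209 and 130, and the beta-glucan receptor Clec7a at 972 and 793 against 477 and 298. Of 9 neutrophil list genes past the filter, 7 were higher under IL-13 and TSLP, against 17.0% of all probe sets, with a median of 0.48. S100a8 was the 1 with a negative difference, at 6777 and 2857 against 4212 and 4932.

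Hyaluronan is the water-binding sugar polymer of the dermis. Has1, a hyaluronan synthase, had signals of 408 and 381 under IL-13 and TSLP, 125 and 93.6 under TGF-beta, and 205 under PBS. The difference was 1.63 ± 0.21 (SE), the sides did not overlap, and both TGF-beta arrays were below the filter. The synthase Has2, which passed the filter through the IL-13 array only, was at 255 and 135 against 75.4 and 64.0, with PBS at 211. Enzymes that supply the sugar precursors lay the same way, Gfpt2 at 914 and 1236 against 541 and 453 and Uap1 at 1999 and 2106 against 1372 and 739. Tnfaip6, which binds hyaluronan, was at 450 and 438 against 269 and 131. In a hyaluronan list made after these values were seen, 8 of the 10 genes past the filter were higher under IL-13 and TSLP and 2 under TGF-beta (Hmmr and Hyal2), against 17.0% and 15.0% of all probe sets; the list holds Has1 and supports no direction.

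The genes IL-13 is known to act on were mostly higher on the joint side, yet several were much higher on the IL-13 array than on the TSLP array. Of 15 genes of the IL-4 and IL-13 response past the filter, 11 were higher under IL-13 and TSLP and 0 under TGF-beta, against 17.0% and 15.0% of all probe sets. The median was 0.79, which was 1.06 without the TSLP array and 0.42 without the IL-13 array. Retnla, a secreted marker of alternatively activated macrophages, was at 1515 under IL-13, 2167 under TSLP, 595 and 367 under TGF-beta, and 975 under PBS. Its highest cytokine value was thus under TSLP, and distal PBS skin was higher still at 9075. Chil3, a chitinase-like protein, was at 4175 under IL-13 but 854 under TSLP, against 547 and 332 with PBS at 1125.

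Arg1, the arginase of such macrophages, did not separate the sides. It was at 5149 under IL-13, 1556 under TSLP, 1880 in mouse 1 and 730 in mouse 2. Ccl24, an eosinophil chemokine, was at 458 under IL-13 and 137 under TSLP, between 211 and 71.0 under TGF-beta. The decoy receptor Il13ra2 was at 468 and 182 against 170 and 84.6, apart by only 0.08. Mmp12, the macrophage elastase, was at 731 and 324 against 139 and 53.0 (both below the filter), with PBS at 23.4, and the collagenase Mmp13 at 692 and 112 against 87.0 and 151. Both TSLP receptor chains were apart, higher under IL-13 and TSLP. Crlf2 was at 1252 and 1479 against 1085 and 993, a difference of 0.38. Il7r was at 249 and 324 against 201 and 143, a difference of 0.66. The limma adjusted p was 0.998 for both. Of 6 eosinophil list genes on the array, 0 passed the filter.

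Interferon genes were mostly higher on the joint side. Of 18 interferon-stimulated genes past the filter, 15 were higher under IL-13 and TSLP and 0 under TGF-beta, against 17.0% and 15.0% of all probe sets, and the median was 0.50 (0.33 without the TSLP array and 0.63 without the IL-13 array). Ubd, a ubiquitin-like modifier that passed the filter through the TSLP array only, was at 70.6 and 264 against 56.8 and 23.6. Usp18, which removes the modifier Isg15, was at 730 and 853 against 516 and 348. Of 10 guanylate-binding and immunity-related GTPases, which attack vacuoles of microbes, 7 were higher on the joint side, against 17.0% of all probe sets. Their median of 0.69 became 0.20 without the TSLP array and 1.46 without the IL-13 array, so its size came mainly from TSLP. Igtp was at 1029 under IL-13 and 3016 under TSLP against 896 and 675.

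The T cell chemokines split in the same manner. Cxcl10 was at 501 and 766 against 314 and 223, with PBS at 185, and the sides did not overlap. Cxcl9 was at 332 under IL-13 and 2473 under TSLP against 349 and 212, so IL-13 lay inside the TGF-beta range. Irf1 was at 660 and 1360 against 703 and 659. Antigen presentation genes differed by less, 8 of 16 being higher on the joint side and 1 under TGF-beta (B2m), against 17.0% and 15.0% of all probe sets, with a median of 0.16.

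**Figure D3:**
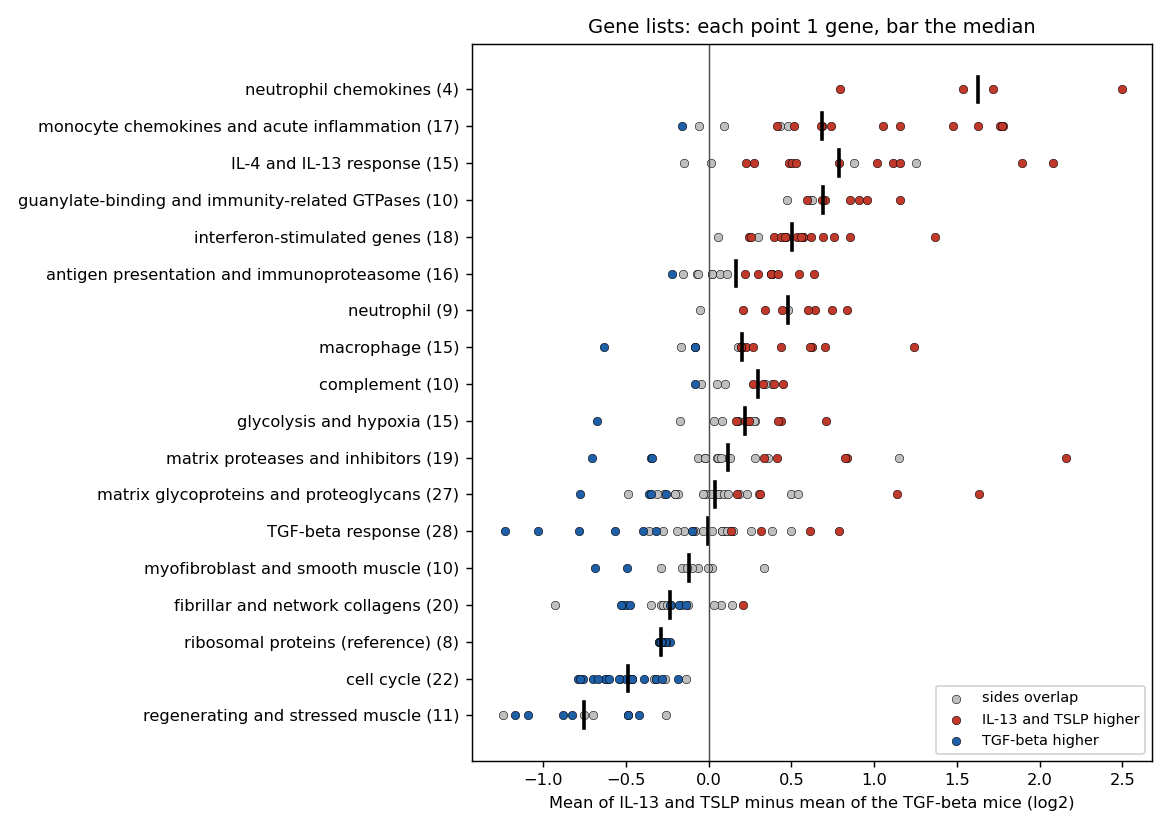
Mean of IL-13 and TSLP minus mean of the TGF-beta mice (x axis, log2) for each gene past the filter (points) in 18 lists, with the median as a black bar and the number of genes in brackets; red and blue points are genes whose sides do not overlap, grey points overlap. Neutrophil chemokines have the highest median, 1.63, and the cell cycle genes, median -0.49, all lie left of 0.

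On the TGF-beta side the leading genes had smaller gaps and belonged to no single programme. In rank order the first 10 were Khdrbs1, Sox18, Krt6b, Actc1, Fhl2, Mmp11, Atp5md, Tril, Ide and Taf1d. Of the 20 leading genes on this side, 6 had both the IL-13 and the TSLP array below the filter. Taf1d was 1 of these, and its other probe set past the filter overlapped, with a difference of 0.25 toward IL-13 and TSLP. Sox18, a transcription factor of vascular and lymphatic endothelium and of hair, had signals of 714 and 664 in the TGF-beta mice, 390 and 385 under IL-13 and TSLP, and 474 under PBS. The groups did not overlap, and TGF-beta was higher by 0.79 ± 0.14 (SE), with a limma adjusted p of 0.376. Fhl2, a LIM protein of muscle and fibroblasts, was at 369 and 395 against 232 and 234, with PBS at 210. Mmp11, a stromal protease, was at 198 and 214 against 125 and 107, with PBS at 88.6, and the IL-13 and TSLP arrays were below the filter.

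The RNA-binding protein gene Khdrbs1 ranked first, at 1223 and 1445 against 714 and 708, but 3 of its 4 other probe sets past the filter overlapped between the sides. Ide, the insulin-degrading enzyme, was at 2344 and 2698 against 1593 and 1536, and its 2 other probe sets past the filter were apart in the same direction. PBS outlet skin at 2517 lay within the TGF-beta range. Krt6b, a keratin of wounded and follicular epidermis, was at 134 and 180 against 70.6 and 39.1, and the 2 lower arrays and mouse 1 were below the filter. The transcript of Tslp itself was at 189 and 174 under TGF-beta, 105 under IL-13, 115 under TSLP and 146 under PBS. Its IL-13 and TSLP arrays were below the filter. Mest, an imprinted growth gene, was at 904 and 474 against 204 and 334. Over both directions, the leading genes had 13 other probe sets past the filter, of which 12 had the same sign, 8 were apart in the same direction and 0 in the other.

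Genes known to respond to TGF-beta separated the sides only in part. Of 28 past the filter, 7 were higher under TGF-beta, 4 under IL-13 and TSLP and 17 overlapped, with a median of -0.01, against 15.0% and 17.0% of all probe sets. Bambi, a pseudoreceptor that dampens the pathway, was at 207 and 567 against 122 and 142, with PBS at 84.3. Smad6, an inhibitory SMAD, was at 120 and 283 against 72.7 and 82.6. For both the gap was set by mouse 1, the lower of the TGF-beta mice. Bambi passed the filter through the TGF-beta arrays only, and Smad6 through mouse 2 only. Ccn4, a matricellular protein, was at 504 and 347 against 278 and 193, and Id1, a transcriptional inhibitor, at 1282 and 1540 against 1029 and 861.

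Other genes of the pathway lay the other way or did not separate. Ccn1 was at 966 and 775 under TGF-beta against 1682 and 1365, and the transcription factor Snai2 at 268 and 251 against 433 and 390. Ccn2, a classical target, was at 4568 and 2494 against 2978 and 4407. Smad7 was at 192 and 295 against 218 and 169, and Tgfbi at 6438 and 5786 against 6824 and 6106. The receptors Tgfbr1 and Tgfbr2 differed by -0.09 and 0.15. Tgfb1 was below the filter on every array.

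Single genes of basement membrane and smooth muscle were higher under TGF-beta. Col4a1, a chain of the basement membrane network, was at 6883 and 6144 against 4657 and 4538, with PBS at 5181, and Col18a1 at 1156 and 1224 against 803 and 829. Tagln, an actin-binding protein of smooth muscle, was at 1723 and 2032 against 1035 and 1278. Acta2, the myofibroblast actin, was at 7077 and 5679 against 4541 and 4444. Of 10 smooth muscle genes past the filter these were the 2 higher under TGF-beta and 0 were higher on the joint side, a share near the 15.0% of all probe sets. The list median of -0.12 was 0.18 without TGF-beta mouse 1 and -0.02 after quantile normalization. The sides overlapped for the main fibrillar chains of dermis, Col1a1 at 6807 and 6168 against 6396 and 4383 and Col3a1 at 21544 and 17197 against 18609 and 13548. In all, 6 of 20 collagen genes were higher under TGF-beta and 1 (Col5a3) on the joint side, against 15.0% and 17.0%.

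Bright probe sets as a class leaned the same way, which bears on these values. Where the mean of the 4 arrays was at or above 13 on the log2 scale, the median difference over 273 probe sets was -0.26, TGF-beta was higher for 53.5% and IL-13 and TSLP for 0%. From 12 to 13 the median was -0.12 over 462, and from 8 to 10 it was 0.02 over 6370. The TSLP array gave most of this, its median difference from the TGF-beta mean being -0.45 at 13 and above against -0.08 for IL-13. All 8 reference ribosomal protein genes were higher under TGF-beta, with a median of -0.29. After quantile normalization the ribosomal median was -0.02 with 1 of 8 apart, the collagen median was -0.13 instead of -0.23, Col3a1 was at 0.02, and Acta2 (-0.39), Col4a1 (-0.39), Tagln (-0.70) and Bambi (-1.25) stayed apart in the same direction.

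**Figure D4:**
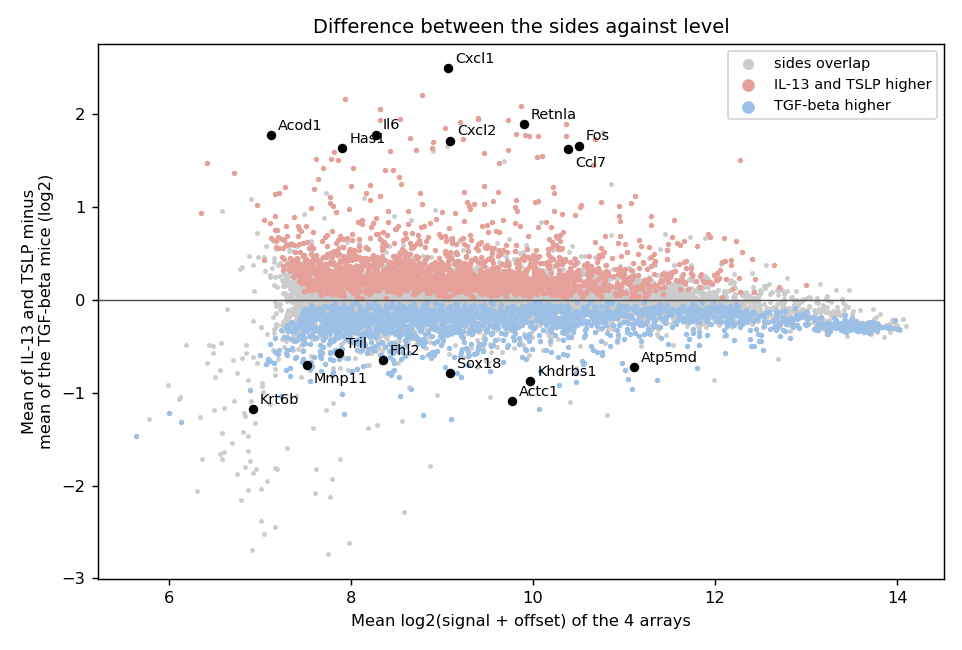
Difference between the side means (y axis, log2) against the mean of the 4 arrays (x axis, log2(signal + 27.4)) for the 12144 probe sets past the filter; pale red and pale blue mark probe sets whose sides do not overlap, and black points the first 8 genes of each direction. The cloud bends below 0 at the right end, where 273 probe sets at 13 and above have a median of -0.26.

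Cell division genes lay on the TGF-beta side. Of 22 past the filter, 17 were higher under TGF-beta and 0 on the joint side, against 15.0% and 17.0% of all probe sets, and the median was -0.49. It kept its sign in each setting tried, and was -0.52 after quantile normalization. Cdk1, the mitotic kinase, was at 851 and 1021 in the TGF-beta mice, 660 under IL-13, 439 under TSLP and 694 under PBS. Bub1, of the spindle checkpoint, was at 238 and 294 against 186 and 109, with PBS at 187. Birc5, a protein of dividing cells, was at 749 and 789 against 602 and 354. PBS outlet skin had a list median of 9.45 on the log2 scale, next to 9.46 and 9.59 under TGF-beta, and IL-13 at 9.18 and TSLP at 8.73 lay below it. Without the TSLP array the difference was -0.28, and without TGF-beta mouse 2 it was -0.32.

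Hair follicle genes were high in mouse 2. The summed signal of the 27 list genes on the array was 62500 in mouse 2, 1592 in mouse 1, 4997 under IL-13 and 1889 under TSLP. Krt25, an inner root sheath keratin, was at 13132 in mouse 2, 29.8 in mouse 1, 1049 under IL-13 and 30.8 under TSLP. Of the 24 genes past the filter, 23 overlapped between the sides. Padi1 was the 1 higher under TGF-beta and 0 were higher on the joint side, against 15.0% and 17.0% of all probe sets. The list median of -1.76 became 0.61 without mouse 2, and the part of the hair genes in Krt6b and Sox18 was not tested.

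Transcripts of the exocrine pancreas were present and lay on the other side. Their 27 genes on the array summed to 23186 under IL-13, 19502 under TSLP, 3112 in mouse 1, 16966 in mouse 2 and 7223 in PBS outlet skin. Of the 19 past the filter, 13 were higher under IL-13 and TSLP and 0 under TGF-beta, against 17.0% and 15.0% of all probe sets. Cpb1, a digestive carboxypeptidase, was at 1336 and 1258 against 115 and 788, and Clps, the pancreatic colipase, at 1393 and 1202 against 94.9 and 926. The gap to mouse 2 was small and that to mouse 1 large, and the list median of 1.60 was 0.31 without mouse 1 and 2.92 without mouse 2. None of the 12 probe sets at least 2-fold apart names a gene of this list. The part of this tissue in the other results was not tested.

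Muscle under the skin was also unequal. Of 11 genes of regenerating or stressed muscle past the filter, 6 were higher under TGF-beta and 0 on the joint side, against 15.0% and 17.0% of all probe sets, with a median of -0.75 that became -0.16 without the TSLP array. Actc1, the cardiac actin that regenerating fibres make, was at 1092 and 1420 against 489 and 666, with PBS at 765. Myl4, an embryonic myosin light chain, was at 1320 and 1888 against 1268 and 365. Ankrd1, a stress gene of muscle, was at 3079 and 2431 in the TGF-beta mice, 3009 under IL-13 and 421 under TSLP, so the sides overlapped. The 19 genes of mature skeletal muscle had a median of -0.11, which turned to 0.10 after quantile normalization.

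**Figure D5:**
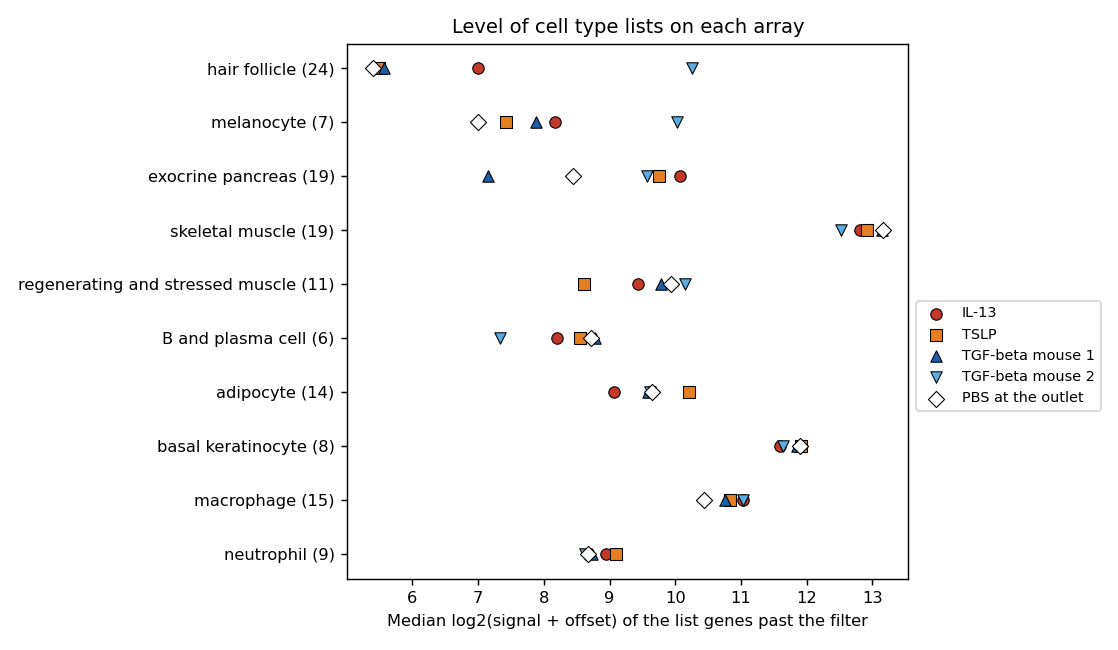
Median log2(signal + 27.4) of the genes past the filter (x axis) in 10 cell type lists on each array, with the number of genes in brackets. TGF-beta mouse 2 stands apart for hair follicle genes (10.25 against 5.56 in mouse 1) and mouse 1 for exocrine pancreas genes (7.15 against 9.57 in mouse 2), while macrophage and neutrophil medians lie close together.

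Against the control level, the leading genes of each direction did not all sit in the same place. Of the 20 leading genes higher under IL-13 and TSLP, PBS outlet skin lay between the sides for 12, below all 4 cytokine arrays for 7 and within the TGF-beta range for 1, Cd14. Of the 20 higher under TGF-beta it lay between for 8, below all 4 for 6, within the IL-13 and TSLP range for 4, within the TGF-beta range for 1 and above all 4 for 1. With 1 control array these places have no error.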

How the data were processed

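The deposited values are linear MAS5 intensities, 1 per probe set and array, from biotin-labelled total RNA on Affymetrix arrays, per the labels and the submitters' processing notes. The MAS5 version and genome build are not given in the sources used here. Trimmed means lay between 499.95 and 499.96, so the deposited arrays already shared a scale and were not rescaled. The 64 AFFX probe sets were left out, and 20380 of the other 22626 name 1 gene in the platform annotation, 691 several and 1555 none. Symbols of 20351 were matched by gene number to RefSeq (GRCm38.p6).

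Values were taken as log2(signal + 27.4), the 25th percentile of all 6 arrays, which understates differences of dim genes. A probe set entered if at least 1 of the 4 arrays reached 165, and 782 did so through 1 side only. limma 3.58.1 under R 4.3.3 (lmFit, eBayes with an intensity trend) compared the sides over 12144 probe sets with Benjamini-Hochberg adjustment at 0.05. It had 2 residual and 4.78 prior degrees of freedom. The fit was also run on simulated data in which the arrays of a side were replicates. That run cannot vouch for IL-13 and TSLP as a pair, since they are different treatments. No source says that arrays are separate animals except the TGF-beta labels, so p-values measure only the spread between these arrays. The number of arrays limits the precision.

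Genes set for naming were, in each direction, the 20 with the largest smallest difference, and list genes at least 2-fold apart or with a list's extreme values. To these came 40 textbook genes, of which 38 had a probe set. Not all are given above. Among textbook genes without values above, Il4ra, Il13ra1, Ccl11, Lyve1 and Ccl17 (below the filter) were apart with IL-13 and TSLP higher. Postn and Mmp3 were apart with TGF-beta higher, and Fn1 and Timp1 overlapped. A list gene is represented by its brightest probe set. The members, the 44 lists and the tests were chosen with earlier results of these data known, and 2 lists and 1 motif were added after seeing the values. Other genes are named as examples of a list or as members with leading values, chosen after their values were seen. Alternatives changed the offset, normalization, filter, design, variance prior and arrays used.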

Additional observations from a re-analysis of the deposited data

How the results depend on the processing

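No paired analysis was possible because only the TGF-beta arrays carry a mouse number. Over the settings tried, 1024 values of named genes moved by no more than the spread within the sides and 52 by more, as did 367 and 38 list medians; 0 results called apart or by limma reversed. The count at least 2-fold higher under IL-13 and TSLP was 7 at the higher offset, all among the 12, the losses being Acod1, Has1, Il1b, Il6 and Mmp12. It was 8 with all 4 arrays past the filter. Without the filter the counts of probe sets apart were 3816 and 3457, 1 was at least 2-fold higher under TGF-beta (F2rl3, with no signal above 46.9), and limma called 0; with 1 probe set a gene the counts apart were 1319 and 1111. limma also called 0 after quantile normalization, in both fits with the spread from the TGF-beta mice and without the intensity trend; with all 4 arrays past the filter it called 3 (Cxcl1, Cxcl2 and Fos). Leaving out 1 array leaves 2 differences in place of 4. The counts apart then ran from 3309 to 4873 with IL-13 and TSLP higher and from 3402 to 4440 with TGF-beta higher, those at least 2-fold from 39 to 62 and from 4 to 109, and limma's calls from 0 to 94 and from 0 to 133. The calls came without a TGF-beta mouse, when the spread is that between IL-13 and TSLP alone and the lone mouse is assumed to vary like them. Values near the offset are limited by signal over background.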
